A study of Mus musculus with 12 samples.

Results

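The 50 genes described here encode glycoproteins, proteoglycans and elastic fiber proteins of the extracellular matrix, with the enzymes that crosslink them. They were taken by gene symbol from the deposited table of 54532 genes, and each symbol matched 1 row. The RNA came from MEFs, mouse embryonic fibroblasts in culture, in 4 groups of 3 libraries, 12 in all. Wild-type (WT) cells and CHIP-KO cells, which lack the chaperone-dependent ubiquitin ligase CHIP encoded by Stub1, were left without treatment or held for 1 hour at 43 °C. The labels name no strain, passage or method of deletion, and do not say whether a line was 1 clone or how the cultures behind the 3 libraries of each group relate. The p values therefore measure the spread between these libraries, which may be technical.

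The matrix around fibroblasts is a network of secreted proteins. Fibronectin and the matricellular proteins connect cells with fibers, and small leucine-rich proteoglycans bind collagen and set fiber width. Fibrillin microfibrils, fibulins and elastin make elastic fibers, and lysyl oxidases crosslink elastin and collagen. Some of the latent TGF-beta binding proteins, but not all, tether the inactive cytokine to microfibrils. Laminins, nidogens and perlecan belong to basement membranes, and fibroblasts are a main source of most of these proteins.

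Expression is given as FPKM, fragments relative to gene length and sequencing depth, as mean ± SD over 3 libraries or for replicates 1, 2 and 3 in that order. Changes are differences of log2(FPKM + 1), and a fold change is that difference turned back to a ratio, and is smaller than the FPKM ratio where values are low. A gene was called when its limma p, adjusted by Benjamini-Hochberg over the 13023 genes with FPKM of at least 1 in at least 3 libraries, was under 0.05. The libraries held 15591924 to 26954112 fragments, the CHIP-KO libraries mostly more than the wild-type ones. Wild-type replicates 1, unheated and heated, stood apart from their groups, with a chi-square per degree of freedom of 17.6 to 26.7 against 3.49 and 5.09 for the other wild-type pairs, so counts are also given without them. Heated CHIP-KO replicate 1 stood apart less, at 10.4 and 16.6 against 3.40 for the other pair of its group. Stub1 stood at 53.8 to 64.1 FPKM in the wild-type libraries and 0.722 to 1.17 FPKM in the CHIP-KO libraries (exact two-sided permutation p = 0.1 at each treatment, the smallest that 3 against 3 can give). Of 9 fibroblast markers, 9 reached a mean of 1 FPKM in CHIP-KO and 8 in wild type. The exception was Thy1, at 0.00524 FPKM in unheated and 0.0259 FPKM in heated wild-type cells against 8.28 and 8.73 FPKM in CHIP-KO cells. In bulk RNA, fewer cells of a type and less RNA per cell cannot be told apart.

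Of the 50 genes, 45 passed the filter on low values and 33 of them reached 1 FPKM in all 12 libraries. Efemp1, Dcn, Fbn2, Prelp and Mfap5 passed through CHIP-KO libraries alone, so a genotype difference was built into their passing. Comp passed through wild-type libraries alone, so a lower level in CHIP-KO was built into its passing. Postn, Aspn, Islr, Mfap2, Mfap4 and Ltbp2 passed through part of the libraries too. Mfap2 reached 1 FPKM in only 1 wild-type library, so its passing rested on CHIP-KO. Aspn reached it in only 1 library of each CHIP-KO group, so its passing rested on wild type. The most abundant per length were Fn1 and Sparc, at 492.5 and 490.6 FPKM over all libraries, followed by Lox at 216.4 FPKM. Lum, Lama4, Sparcl1, Spon1 and Eln did not pass. Lum, a small leucine-rich proteoglycan, had 0, 1, 5 and 11 fragments in all in unheated and heated wild type and unheated and heated CHIP-KO, and all 11 of the last were in 1 library. Eln, which encodes elastin, had 13, 237, 28 and 45 fragments in the same order, 0.535 ± 0.146 FPKM at its highest in heated wild type. Lama4, a laminin chain, had 1, 16, 199 and 178 fragments. Elastin is the core of elastic fibers. Of its microfibril partners, Fbn1 and Emilin1 averaged 25.7 and 74.4 FPKM over all libraries, while Fbn2, Mfap2, Mfap4 and Mfap5 averaged 0.522 to 2.84 FPKM.

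**Figure D1:**
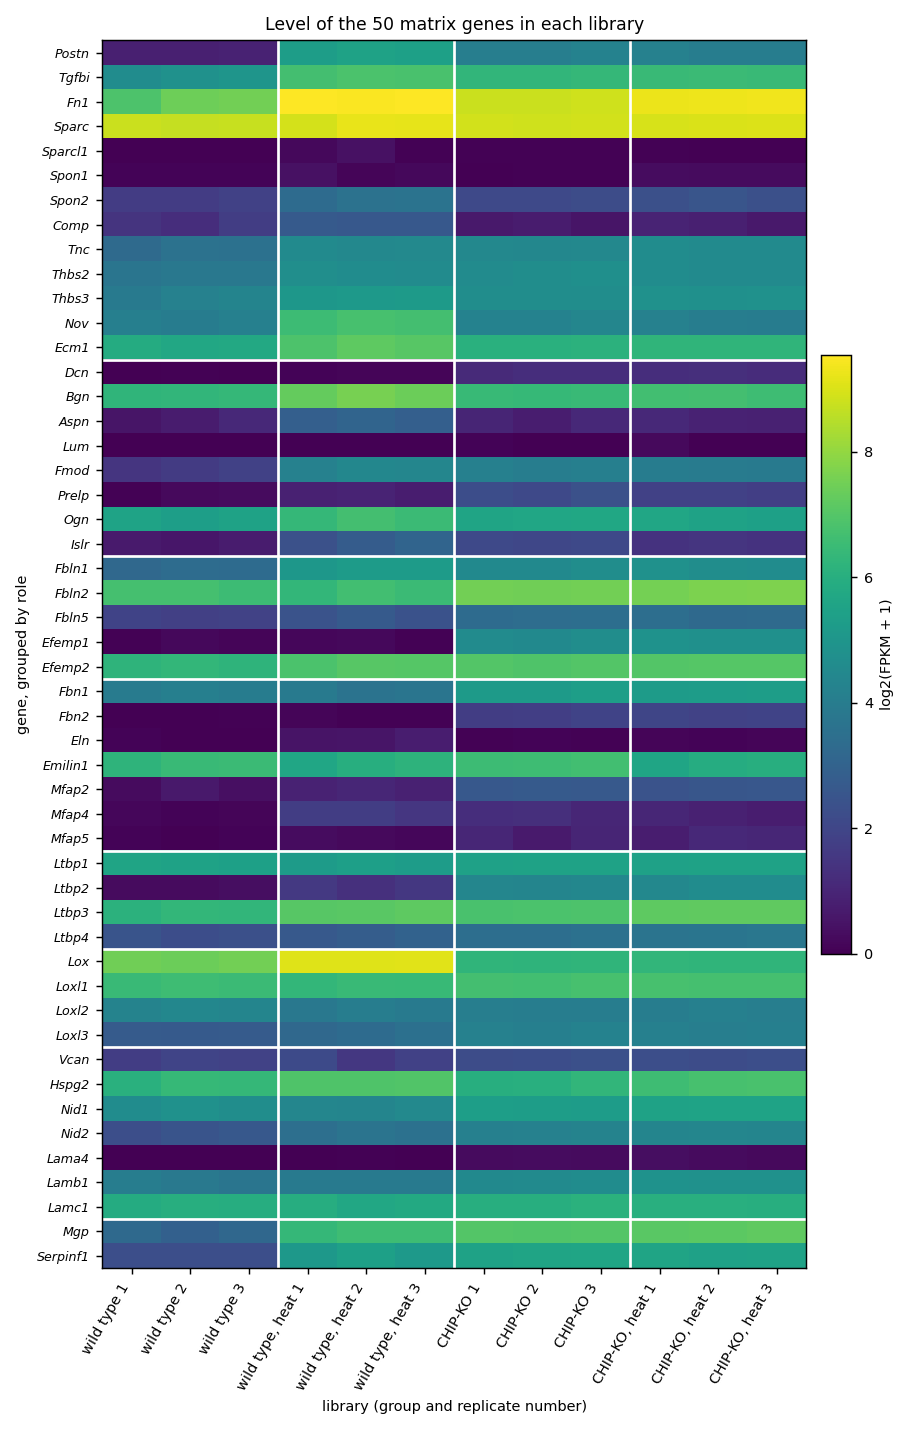
Level of each of the 50 genes (rows, grouped by role) in each of the 12 libraries (columns), as log2(FPKM + 1) by color. Fn1 and Sparc are bright throughout, the unheated wild-type columns are darker than the other 3 groups for Postn, Mgp and Serpinf1, and both wild-type groups are darker than the CHIP-KO groups for Efemp1 and Ltbp2.

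Heat in wild-type cells raised most of these genes. Of the 45 tested, 31 rose and 5 fell, 80% in all, where 58.7% of all tested genes were called (28.1% higher and 30.5% lower). The median log2 change was 0.862 over the 45 genes and -0.0157 over all tested genes. Rises of at least 2-fold numbered 20, where 6.56% of all tested genes rose that far, and the 5 falls were of 0.20 to 0.45 on the log2 scale. The heated and unheated libraries did not overlap for 40 of 45 genes, where this held for 60.4% of all tested genes. Without both wild-type replicates 1, 31 rose and 5 fell, where 57.6% of all tested genes were called.

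Matricellular and adhesive glycoproteins, which stand between cells and fibers, rose in 11 of 11 tested cases. Postn (ENSMUSG00000027750, GRCm38 chromosome 3, positions 54361109 to 54391037, plus strand) encodes periostin, a fasciclin-domain protein that links collagen and tenascin. It stood at 0.766, 0.775 and 0.898 FPKM without heat and at 38.7, 44.3 and 41.8 FPKM with heat. The lowest heated library was thus far above the highest unheated one, which gave a log2 change of 4.55 with an SE of 0.0674 (limma adjusted p = 9.99e-12). Tgfbi, the other fasciclin-domain gene of the set, went from 24.0, 27.6 and 30.5 FPKM to 102, 115 and 112 FPKM, 3.91-fold. Fn1 encodes fibronectin, the main adhesive glycoprotein of fibroblasts. Its unheated libraries stood at 117, 173 and 180 FPKM, with replicate 1 the lowest, and its heated libraries at 746, 712 and 744 FPKM, 4.74-fold higher (limma adjusted p = 1.85e-07). Nov encodes CCN3, a cysteine-rich signaling matrix protein. It rose 5.98-fold, from 16.5, 14.9 and 16.7 FPKM to 93.2, 107 and 102 FPKM. Spon2, which encodes a spondin, rose 3.44-fold, Ecm1 2.38-fold and Comp, a pentameric thrombospondin of cartilage and tendon, 2.30-fold. Tnc (tenascin C), Thbs3 and Thbs2 (thrombospondins) rose 2.03-fold, 2.0-fold and 1.82-fold. Sparc, a collagen-binding glycoprotein, moved least, 1.29-fold from 427 ± 12.5 to 553 ± 61.3 FPKM, and lost its call when values were scaled by quantiles or to the same sum.

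Small leucine-rich proteoglycans and their relatives rose in 6 of 7 cases. Fmod encodes fibromodulin, which binds collagen fibrils, and rose 6.38-fold, from 1.77, 2.19 and 2.62 FPKM to 17.5, 20.6 and 19.7 FPKM (limma adjusted p = 5.85e-09). Aspn (asporin) went from 0.458, 0.651 and 1.14 FPKM to 6.47, 7.54 and 6.34 FPKM. Islr, a leucine-rich repeat protein with an immunoglobulin domain, went from 0.614, 0.476 and 0.666 FPKM to 4.19, 5.89 and 7.49 FPKM. Bgn (biglycan), abundant already at 78.0 ± 2.59 FPKM, reached 173 ± 17.9 FPKM, and Ogn (osteoglycin) went from 43.3 ± 2.68 to 91.3 ± 9.84 FPKM. Those rises were 2.19-fold and 2.08-fold. Prelp rose 1.59-fold but only to 0.825 ± 0.120 FPKM, and lost its call under quantile normalization. Dcn, which encodes decorin, stood at 0.0153 ± 0.0179 and 0.0881 ± 0.0151 FPKM, 5 and 28 fragments in all, and was not called. Decorin transcripts were therefore nearly absent from wild-type cells while those of its close relative biglycan were abundant.

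Mgp and Serpinf1 were the next largest rises after Postn. Mgp, matrix Gla protein, an inhibitor of calcification, stood at 8.55, 6.54 and 8.01 FPKM and after heat at 80.7, 95.9 and 94.3 FPKM, 10.5-fold (limma adjusted p = 1.14e-09). Serpinf1 encodes pigment epithelium-derived factor, a secreted serpin without protease inhibition. It went from 3.95, 3.86 and 3.89 FPKM to 33.2, 41.9 and 34.7 FPKM, 7.63-fold (limma adjusted p = 9.32e-10).

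Elastic fiber genes were divided. Among fibulins, Fbln1 rose 3.66-fold (8.88 ± 0.447 to 35.2 ± 2.55 FPKM), Efemp2 1.66-fold and Fbln5 1.57-fold. Fbln2 stood at 100 ± 7.80 and 89.5 ± 9.86 FPKM and was not called. Among microfibril genes Mfap4 rose 2.86-fold, to 2.17 ± 0.274 FPKM, and Mfap2 1.41-fold, to 0.923 ± 0.124 FPKM, the latter lost under quantile normalization. Fbn1, which encodes fibrillin-1, the main microfibril component, fell by 0.28 on the log2 scale (15.4 ± 0.881 to 12.6 ± 1.60 FPKM), and Emilin1, an elastin interface protein, fell by 0.45 (83.7 ± 8.65 to 61.3 ± 10.9 FPKM). Of latent TGF-beta binding proteins, Ltbp2, Ltbp3 and Ltbp4 rose 2.26-fold, 1.83-fold and 1.38-fold. Ltbp1 fell by 0.20, from 44.6 ± 2.74 to 38.7 ± 2.41 FPKM, a call lost without both wild-type replicates 1. With these groups fitted alone Ltbp1 and Fbn1 lost their calls. Lox encodes the founding lysyl oxidase and rose from 176, 168 and 182 FPKM to 534, 538 and 552 FPKM, 3.08-fold (limma adjusted p = 1.26e-09). Its relative Loxl3 rose 1.53-fold, Loxl2 fell by 0.43 and Loxl1, at 90.9 ± 3.44 and 84.0 ± 5.20 FPKM, was not called.

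Of basement membrane genes and large proteoglycans 2 of 6 were higher and 1 lower, 50%, where 58.7% of all tested genes were called. The nidogens, which link laminin to collagen IV, went opposite ways: Nid2 rose 2.15-fold from 4.57 ± 0.679 to 10.9 ± 0.810 FPKM, and Nid1 fell by 0.29 from 25.1 ± 1.89 to 20.3 ± 1.08 FPKM. Hspg2 (perlecan) rose 1.56-fold, from 76.9 ± 9.42 to 120 ± 1.29 FPKM. The laminin genes Lamb1 and Lamc1 and the versican gene Vcan were not called.

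Markers of other cell types moved with heat in wild type. The summed level of 5 cartilage markers went from between 4.0 and 4.60 FPKM to between 28.0 and 38.0 FPKM, most of it Sox9 (3.45 to 29.7 FPKM), with Acan at 0 and 0.0430 FPKM and Matn1 at 0.00785 and 0.0177 FPKM. For 5 mesothelial markers it went from 29.9 to 30.6 FPKM down to 5.43 to 6.14 FPKM, nearly all of it Msln, with Wt1 and Lrrn4 at 0 in all libraries. For 6 epithelial markers it went from 12.4 to 17.3 FPKM down to 4.54 to 5.58 FPKM, mostly Krt19, with Cdh1 at 0.0525 and 0.0662 FPKM. For 5 macrophage markers it went from 1.86 to 2.98 FPKM up to 12.3 to 15.4 FPKM, nearly all of it Cd68, with Adgre1 and C1qa at 0. In each list 1 of the markers reached a mean of 1 FPKM in unheated wild type. For 5 neural markers it went from 29.4 to 35.2 FPKM down to 21.7 to 22.0 FPKM. That fall was in Nes (21.4 to 7.32 FPKM), while Map2 (3.99 to 7.42 FPKM) and Sox2 rose and Tubb3 stood at 6.83 and 6.5 FPKM. For 5 skeletal muscle markers it went from at most 0.335 FPKM to at most 3.50 FPKM (Myod1 and Myog at 0 throughout), and 5 endothelial markers summed to at most 0.368 FPKM. The fibroblast markers went from 1490 to 1910 FPKM up to 1970 to 2300 FPKM, mostly Col1a1 (903 to 1280 FPKM), while Vim fell (599 to 525 FPKM). The part of these markers in the matrix gene changes was not tested.

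Promoter windows were read for the members that the text turns on, to show the sequence in front of genes that rose from low levels together (Postn, Fmod and Aspn) or stayed near 0 in wild type at both treatments (Efemp1). Each line gives the 250 bases before the RefSeq start on GRCm38.p6, plus strand, 5′ to 3′, with capitals marking the motifs searched. The windows are chr3:54360857-54361106, chr1:134037004-134037253, chr13:49544193-49544442 and chr11:28852955-28853204.
Postn: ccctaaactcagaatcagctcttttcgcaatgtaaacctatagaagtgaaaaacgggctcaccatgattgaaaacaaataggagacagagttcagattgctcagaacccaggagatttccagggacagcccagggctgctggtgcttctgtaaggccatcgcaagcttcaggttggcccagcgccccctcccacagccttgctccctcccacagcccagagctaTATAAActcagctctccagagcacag
Fmod: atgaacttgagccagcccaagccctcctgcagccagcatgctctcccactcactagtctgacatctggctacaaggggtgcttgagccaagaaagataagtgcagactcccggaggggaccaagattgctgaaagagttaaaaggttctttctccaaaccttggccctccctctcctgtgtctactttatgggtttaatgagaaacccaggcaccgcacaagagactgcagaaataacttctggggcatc
Aspn: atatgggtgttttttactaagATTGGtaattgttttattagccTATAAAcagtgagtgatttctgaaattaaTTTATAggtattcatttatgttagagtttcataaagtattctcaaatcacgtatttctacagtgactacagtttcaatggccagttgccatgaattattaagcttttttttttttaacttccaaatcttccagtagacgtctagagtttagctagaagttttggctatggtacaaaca
Efemp1: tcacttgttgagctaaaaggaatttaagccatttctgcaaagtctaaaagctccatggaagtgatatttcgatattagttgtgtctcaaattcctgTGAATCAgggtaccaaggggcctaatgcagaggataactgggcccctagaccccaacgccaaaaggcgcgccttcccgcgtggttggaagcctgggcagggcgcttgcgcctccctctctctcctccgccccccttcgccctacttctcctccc
The motifs were TGANTCA (AP-1), the heat shock repeats GAANNTTC and TTCNNGAA, TATAAA and CCAAT, each on both strands, and no match overlapped another in these windows. Postn has TATAAA beginning 26 bases before the start. Aspn has a pair of matches to TATAAA, 1 on each strand and beginning 207 and 178 bases before the start, and a reverse-strand CCAAT. Efemp1 has TGAATCA beginning 154 bases before the start, and Fmod holds none of these letters. RefSeq gave 30 of the 50 genes a window, 25 of them with a start within 100 bases of the start of the gene in the table. Among those 25, TATAAA lay in 6 (12.4% of all 32851 windows), CCAAT in 12 (33.8%), TGANTCA in 2 (6.75%), GAANNTTC in 1 (6.69%) and TTCNNGAA in 0 (7.17%). A match describes the letters only.

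In CHIP-KO cells heat changed 9 of these genes. Of 45 tested, 6 rose and 3 fell, 20%, and 20% of all tested genes were called (8.65% higher and 11.4% lower). The median log2 change was 0.0626, beside -0.00183 over all tested genes, and the called changes lay between -0.76 and 0.61. Heated and unheated libraries did not overlap for 26 of 45 genes, where this held for 48.7% of all tested genes. Without heated CHIP-KO replicate 1, 4 rose and 4 fell, where 15.4% of all tested genes were called. Beside these, the summed cartilage markers went from 15.1 to 15.9 FPKM up to 32.4 to 49.1 FPKM, the macrophage markers from 3.91 to 4.33 FPKM up to 8.47 to 10.7 FPKM and the epithelial markers from 10.1 to 10.5 FPKM up to 15.5 to 22.3 FPKM. Their part was not tested.

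Hspg2 had the largest rise, 1.52-fold from 63.0, 64.8 and 76.5 FPKM to 93.6, 107 and 112 FPKM (limma adjusted p = 0.00219). Fn1 rose 1.41-fold, from 441, 438 and 466 FPKM to 608, 638 and 645 FPKM (limma adjusted p = 0.0220). Ltbp3, Lamb1, Nid1 and Bgn rose 1.29-fold, 1.19-fold, 1.17-fold and 1.16-fold. Emilin1 fell from 93.2, 94.8 and 100 FPKM to 47.7, 59.4 and 62.7 FPKM, -0.76 on the log2 scale (limma adjusted p = 0.00289). Islr fell by 0.66 on the log2 scale, from 3.23 ± 0.0980 to 1.68 ± 0.0913 FPKM, and Prelp by 0.40, from 3.70 ± 0.439 to 2.55 ± 0.114 FPKM. Islr and Prelp thus fell in CHIP-KO and rose in wild type, while Emilin1 fell in both. Of the 8 genes with the largest rises in wild type, Fn1 was higher and Islr lower here, and Postn, Mgp, Serpinf1, Fmod, Nov and Aspn were not called. Nor was Lox. Postn stood at 16.1, 16.1 and 17.8 FPKM and at 17.1, 15.4 and 15.4 FPKM, Lox at 74.1, 73.4 and 74.7 FPKM and at 76.2, 75.2 and 74.1 FPKM, and the unheated and heated libraries of both overlapped. The count of calls rested on the fit. Without both wild-type replicates 1, 14 rose and 4 fell, where 34.3% of all tested genes were called. When each library was set to the same sum, 1 rose and 24 fell, where 67.3% of all tested genes were called. That scaling shifted the median of all genes to -0.289. Of the 9 called genes, Hspg2, Emilin1 and Islr kept their call under every alternative that tested them.

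**Figure D2:**
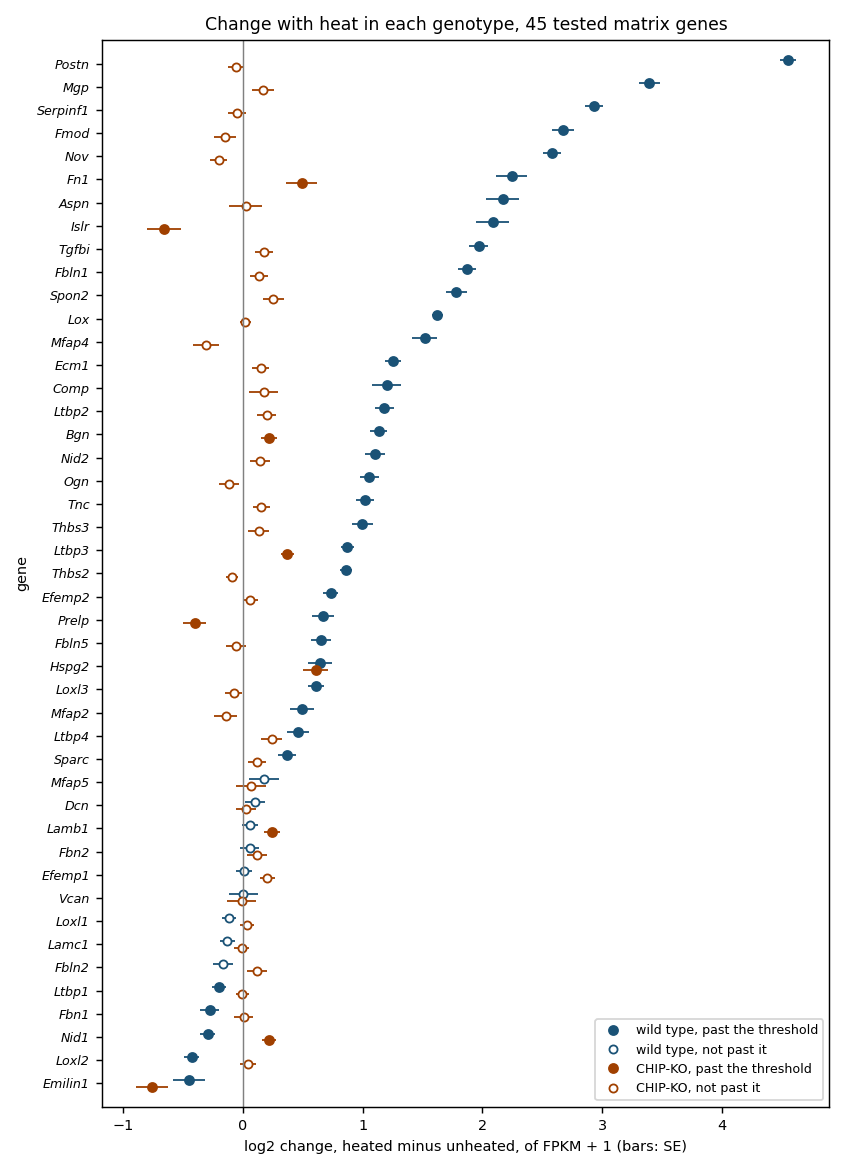
Log2 change of FPKM + 1 with heat (x axis) for the 45 tested genes (y axis, ordered by the wild-type change), with SE bars, in wild type (blue) and CHIP-KO (brown). Filled points passed the adjusted p threshold. The wild-type points run from -0.45 for Emilin1 to 4.55 for Postn, and the CHIP-KO points lie between -0.76 and 0.61.

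The interaction tested whether the heat response differed between genotypes. It was negative, a lower response in CHIP-KO, for 28 of 45 genes and positive for 2, 66.7% in all, where 35.2% of all tested genes were called (17.9% positive and 17.3% negative). The 28, and the counts by role below, include Comp, Prelp, Aspn and Mfap2. The passing of each of these rested on the genotype where it is high, so their differences are given as a description. The median was -0.864 beside -0.00286 for all tested genes, and 17 of the 28 reached 2-fold, where 3.23% of all tested genes did. Postn led with a log2 difference of -4.61 (SE 0.0954, limma adjusted p = 5.88e-10), then Mgp at -3.22, Serpinf1 at -2.98, Fmod at -2.82, Nov at -2.78 and Islr at -2.75. By role it was negative for 10 of 11 matricellular genes (all but Sparc), 6 of 7 small leucine-rich proteoglycans and relatives (all but Dcn), 3 of 5 fibulins, 2 of 6 microfibril genes, 2 of 4 latent TGF-beta binding proteins and 2 of 4 lysyl oxidases. Both positive calls were genes that fell with heat in wild type, Nid1 at 0.52 and Loxl2 at 0.47. Hspg2, which rose in each genotype, had an interaction of -0.0376 (SE 0.144, limma adjusted p = 0.866). Without both wild-type replicates 1 the interaction was negative for 30 and positive for 4, where 39.6% of all tested genes were called.

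Genotypes were then compared without heat. These differences share the 3 unheated wild-type libraries with the heat response of wild type, so their directions are not independent of it. Of 45 genes, 34 were higher and 3 lower in CHIP-KO cells, 82.2%, where 48.5% of all tested genes were called (23.9% higher and 24.5% lower). The median log2 difference was 0.848 beside -0.0118 over all tested genes, and 20 genes were at least 2-fold higher, where 4.71% of all tested genes were. The 20 include Efemp1, Prelp, Fbn2 and Dcn, which passed through CHIP-KO alone. Without Efemp1, Dcn, Fbn2, Prelp and Mfap5, whose higher level in CHIP-KO the filter fixed, 29 of 40 were higher and 3 lower, with a median of 0.719. These counts still hold Mfap2 among the higher and Comp among the lower, and the passing of each rested on the genotype where it is high. The genotypes did not overlap for 41 of 45 genes, or 36 of 40 without the genes that passed through CHIP-KO alone, where this held for 61.2% of all tested genes. Leaving out both wild-type replicates 1 gave 36 higher and 4 lower, where 52.7% of all tested genes were called. Beside these, the summed neural markers stood at 45.1 to 49.4 FPKM in CHIP-KO against 29.4 to 35.2 FPKM in wild type. Nes was lower in CHIP-KO (17.9 against 21.4 FPKM), while Tubb3 (15.8 against 6.83 FPKM), Map2 and Sox2 were higher. The cartilage markers stood at 15.1 to 15.9 FPKM against 4.0 to 4.60 FPKM, and the mesothelial markers, at 27.7 to 32.0 FPKM, overlapped wild type. The fibroblast markers stood at 3030 to 3200 FPKM against 1490 to 1910 FPKM. Most of that difference was Col1a1 (1800 against 903 FPKM) and Col1a2 (517 against 35.6 FPKM), and Vim was lower (492 against 599 FPKM). The part of these markers was not tested.

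Efemp1 (ENSMUSG00000020467, GRCm38 chromosome 11, positions 28853204 to 28926743, plus strand), which encodes fibulin-3, differed most. Its wild-type libraries stood at 0.0312, 0.151 and 0.0925 FPKM, 11 fragments in all, and its CHIP-KO libraries at 23.1, 22.3 and 24.9 FPKM, a log2 difference of 4.48, given as a description since it passed the filter through CHIP-KO alone. Ltbp2 stood at 0.225, 0.200 and 0.288 FPKM in wild type against 19.8, 19.3 and 20.2 FPKM in CHIP-KO, 16.8-fold on the log2(FPKM + 1) scale. No library of either gene came near the other genotype. Mgp stood at 125, 123 and 127 FPKM in unheated CHIP-KO, Serpinf1 at 44.8, 46.4 and 47.8 FPKM and Fmod at 17.0, 15.7 and 16.4 FPKM, each above every unheated wild-type library. Mgp (7.70 ± 1.04 against 125 ± 2.02 FPKM), Postn (0.813 ± 0.0740 against 16.7 ± 0.969 FPKM) and Serpinf1 (3.90 ± 0.0498 against 46.3 ± 1.5 FPKM) were 14.6-fold, 9.74-fold and 9.66-fold higher in CHIP-KO.

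Leaving out the genes that passed through CHIP-KO alone, 4 of 4 fibulins were higher in unheated CHIP-KO cells, Fbln5 2.89-fold and Fbln1 2.41-fold. So were 3 of 4 microfibril genes, among them Mfap2, whose passing also rested on CHIP-KO. Fbn2, one of those left out, which encodes fibrillin-2, the fibrillin of early development, stood at 0.0182, 0.0146 and 0.0359 FPKM in wild type and 2.34, 2.41 and 2.82 FPKM in CHIP-KO. Fbn1 stood at 14.8, 16.4 and 15 FPKM against 36.0, 36.1 and 40.1 FPKM, 2.34-fold. Mfap2 stood at 0.210, 0.591 and 0.311 FPKM against 5.12, 5.48 and 5.41 FPKM, 4.65-fold, and Mfap4 and Mfap5 reached 1.28 ± 0.205 and 0.880 ± 0.226 FPKM. Lysyl oxidases split by member: Loxl3 was 2.74-fold higher and Loxl1 1.13-fold higher, the latter call lost without any 1 of unheated wild-type replicates 1 and 3 and unheated CHIP-KO replicates 1 and 3, while Lox was lower, at 74.0 ± 0.650 against 175 ± 6.86 FPKM, a log2 difference of -1.23 (limma adjusted p = 2.39e-09), and Loxl2 at -0.30. Comp was the third gene lower in CHIP-KO, at 0.547 ± 0.0935 against 1.78 ± 0.480 FPKM, given as a description since it passed the filter through wild type alone.

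Small leucine-rich proteoglycans and relatives were higher in 4 of 7 cases, or 2 of 5 without Dcn and Prelp. Fmod was 5.47-fold higher. Prelp stood at 0.0527, 0.184 and 0.208 FPKM against 3.72, 3.26 and 4.14 FPKM, 4.09-fold, Islr 2.67-fold, and Dcn reached 1.21, 1.38 and 1.35 FPKM from 5 fragments in wild type. Bgn, Aspn and Ogn were not called, although each rose with heat in wild type. Bgn stood at 78.0 ± 2.59 and 85.3 ± 1.89 FPKM. Of matricellular genes 9 of 11 were higher, Fn1 2.89-fold (157 ± 34.7 against 448 ± 15.4 FPKM) and Tgfbi 2.79-fold. Nov, at 16.0 ± 1.02 and 18.5 ± 1.16 FPKM, was 1.15-fold higher at limma adjusted p = 0.0427, a call lost under 9 alternatives. Of basement membrane genes and large proteoglycans 4 of 6 were higher, Nid2 3.33-fold, Lamb1 1.64-fold, Nid1 1.52-fold and Vcan 1.34-fold, the Vcan call lost without unheated wild-type replicate 1 or unheated CHIP-KO replicate 3.

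After heat the genotype difference was smaller in size for 27 of 45 genes, and 10 genes passed from higher to lower in CHIP-KO. Neither was counted over all tested genes, so these counts do not set the matrix genes apart from other genes. The change itself is the interaction above. Of 45 genes, 21 were higher and 15 lower in CHIP-KO, 80.0%, where 42.4% of all tested genes were called (23.3% higher and 19.1% lower). The median log2 difference was 0.0956 beside 0.0133 over all tested genes. Without heated CHIP-KO replicate 1, 20 of 45 were higher and 15 lower, where 37.7% of all tested genes were called. Without both wild-type replicates 1, 21 were higher and 17 lower, where 50.1% of all tested genes were called. Without the 5 genes that passed through CHIP-KO alone, 16 of 40 were higher and 15 lower. Mfap2, whose passing rested on CHIP-KO, stays among the higher. Comp and Aspn, whose passing rested on wild type, stay among the lower. The summed mesothelial markers stood at 31.2 to 38.1 FPKM in heated CHIP-KO against 5.43 to 6.14 FPKM in heated wild type. The epithelial markers stood at 15.5 to 22.3 against 4.54 to 5.58 FPKM. The neural markers stood at 43.0 to 48.9 against 21.7 to 22.0 FPKM, mostly Nes (15.8 against 7.32 FPKM) and Tubb3 (15.5 against 6.5 FPKM). The fibroblast markers stood at 3390 to 3570 against 1970 to 2300 FPKM, mostly Col1a1 (2050 against 1280 FPKM) and Col1a2 (598 against 59.5 FPKM). Col3a1, Pdgfrb and Prrx1 were lower in heated CHIP-KO, Col3a1 at 97 against 141 FPKM. The part of these markers was not tested. The genotypes did not overlap for 39 of 45 genes, or 34 of 40 without the genes that passed through CHIP-KO alone, where this held for 50.4% of all tested genes. Lox and Nov were furthest below wild type. Lox stood at 75.2 ± 1.10 against 541 ± 9.03 FPKM, a log2 difference of -2.83 (limma adjusted p = 4.72e-12), and Nov at 16.0 ± 0.970 against 101 ± 7.16 FPKM, -2.58 (limma adjusted p = 5.74e-10). Aspn stood at 1.13, 0.906 and 0.857 FPKM and Comp at 0.910, 0.772 and 0.564 FPKM in heated CHIP-KO, below every heated wild-type library. Aspn at -1.98, Comp at -1.86, Postn at -1.33, Islr at -1.33 and Spon2 at -1.14 were lower at least 2-fold. Postn and Islr, with Fmod, Tgfbi, Fbln1, Mfap4, Nov, Spon2, Thbs3 and Ecm1, were higher in CHIP-KO without heat and lower with heat. The heated call of Thbs3 was lost without heated wild-type replicate 3, and the unheated call of Nov under the 9 alternatives above.

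The genes that remained above wild type after heat were led by Efemp1 and Ltbp2. Efemp1 stood at 0.127, 0.143 and 0.0268 FPKM in heated wild type and 28.1, 26.5 and 26.8 FPKM in heated CHIP-KO, and Ltbp2 at 1.81 ± 0.272 against 22.9 ± 1.94 FPKM. Microfibril genes were higher in 4 of 6 cases, or 2 of 4 without Fbn2 and Mfap5, and the 2 include Mfap2, whose passing rested on CHIP-KO. Fbn2 stood at 0.0636 ± 0.0263 against 2.82 ± 0.142 FPKM and Fbn1 at 12.6 ± 1.60 against 37.6 ± 0.944 FPKM. Basement membrane genes and large proteoglycans were higher in 5 of 6, Nid1 2.18-fold and Lamb1 1.87-fold, though the calls of Lamc1 and Vcan were lost under 8 and 5 alternatives. Of matricellular genes 7 of 11 were lower, among them Comp, which passed through wild type alone, and Fn1, Sparc, Tnc and Thbs2 were not called. Mgp and Serpinf1 stayed higher but by less, 1.56-fold and 1.22-fold.

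**Figure D3:**
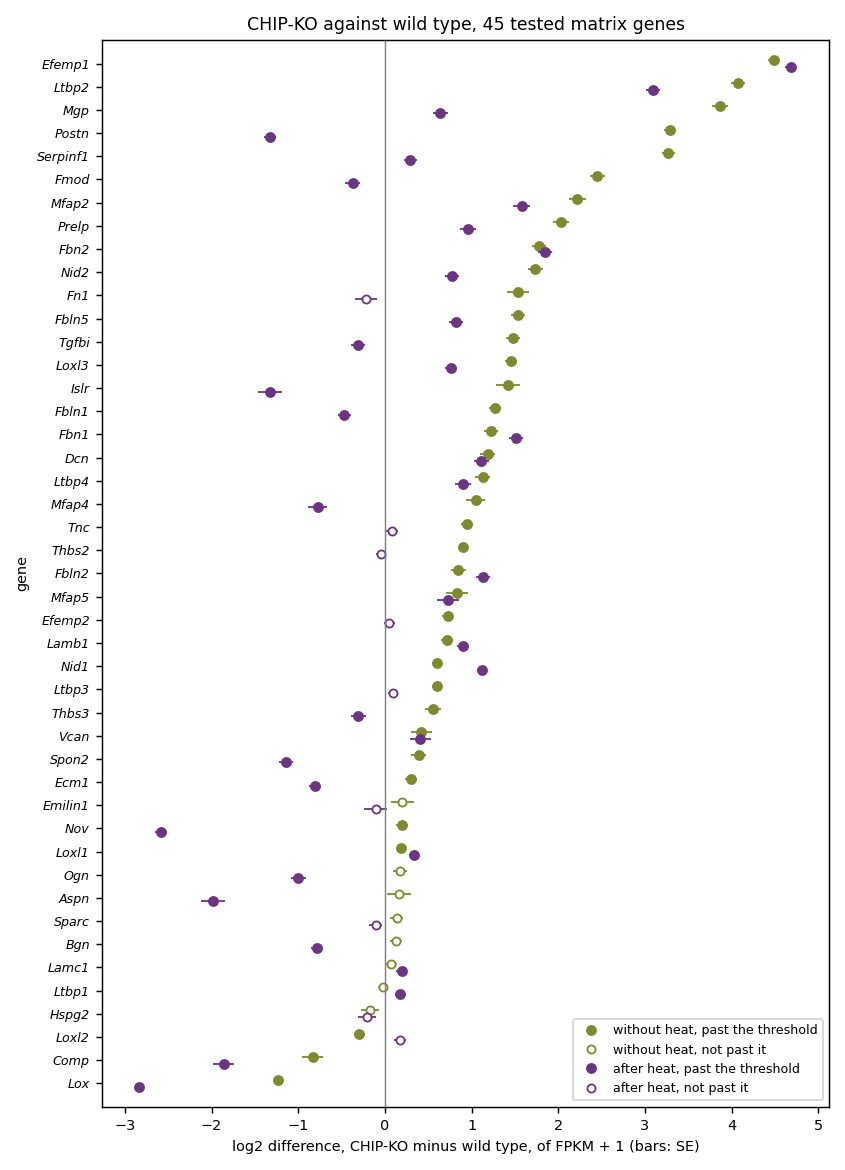
Log2 difference of FPKM + 1 between CHIP-KO and wild type (x axis) for the 45 tested genes (y axis, ordered by the unheated difference), with SE bars, without heat (green) and after heat (purple). Filled points passed the adjusted p threshold. Efemp1 and Ltbp2 stay far to the right at both treatments, and Postn moves from 3.28 to -1.33.

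Levels across the 4 groups are plotted for 9 genes, chosen after their values were seen. Fmod, Mgp and Serpinf1 were low in unheated wild type alone, with heated wild type and both CHIP-KO groups far above it. Nov was high in heated wild type alone. Lox was highest there too, but unheated wild type, at 175 FPKM, also stood above unheated and heated CHIP-KO, at 74.0 and 75.2 FPKM. Postn and Fn1 combined a low unheated wild type with the highest mean in heated wild type. For Fn1 the heated genotypes were not called apart (log2 difference -0.22, limma adjusted p = 0.204). Efemp1 and Ltbp2 separated by genotype at both treatments. Other genes took other forms: Hspg2 was higher and Emilin1 lower after heat in both genotypes. The forms as such were not tested.

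**Figure D4:**
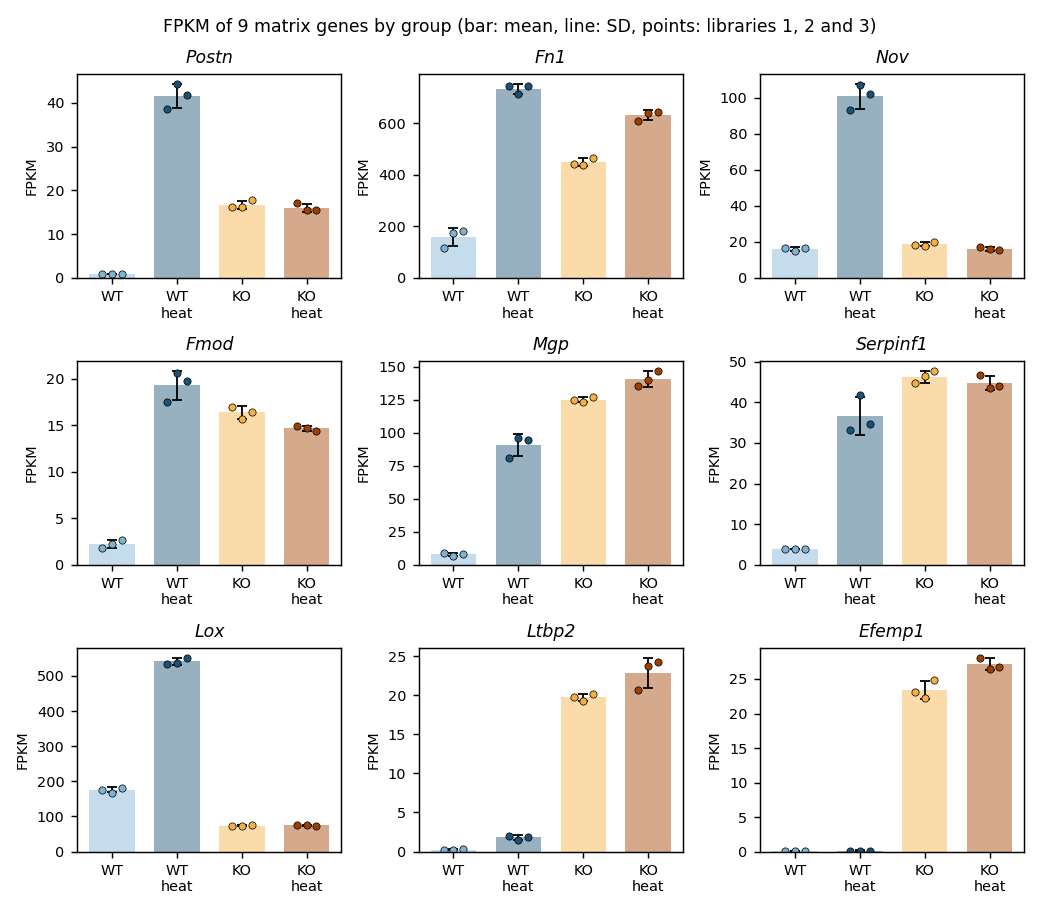
FPKM of 9 genes (y axes from 0, 1 scale per gene) in the 4 groups, with bars for means, lines for SD and points for the 3 libraries. Postn reaches 41.6 FPKM in heated wild type against 16.7 FPKM in unheated and 15.9 FPKM in heated CHIP-KO, and Efemp1 is near 0 in both wild-type groups.

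Position was examined because some of these genes lie side by side. Within 1 megabase, 5 pairs were found. On chromosome 13 Aspn and Ogn, 40.5 kb apart, both rose with heat in wild type (4.5-fold and 2.08-fold) and neither was called by genotype without heat. On chromosome 1 Prelp and Fmod, 115.8 kb apart, both rose with heat in wild type and were both higher in unheated CHIP-KO. On chromosome 10 Dcn and Lum, 47.0 kb apart, were both nearly absent from wild type. In unheated and heated CHIP-KO Dcn had 576 and 514 fragments and Lum only 5 and 11. On chromosome 9 Islr rose 4.24-fold with heat in wild type, and Loxl1, 83.4 kb away, was not called. On chromosome 19 Efemp2 and Ltbp3 (259.1 kb) rose 1.66-fold and 1.83-fold. Neighbors were not compared with other pairs. Exons of 19 of the 50 genes share bases with another annotated gene, 20.1% of the exonic bases for Fbn1, 11.6% for Loxl3 and at most 9.7% for the others. Whether the counting used strand is not given in the sources used here, so reads from these shared bases cannot be assigned.

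Matrix genes outside the 50, listed by function, were counted in the same fit. Of 47 other matrix glycoproteins 23 were tested, and 15 rose and 4 fell with heat in wild type, 82.6% where 58.7% of all tested genes were called. In CHIP-KO 1 rose and 2 fell with heat, 13% where 20% of all tested genes were called. The largest rises in wild type were Smoc2 (1.97 to 10.6 FPKM), Fbln7 (0.732 to 5.64 FPKM) and Aebp1. Without heat 15 were higher and 4 lower in CHIP-KO, 82.6% where 48.5% of all tested genes were called. Cthrc1, a secreted collagen triple helix repeat protein, led at 13.3 against 0.270 FPKM. Of 26 other proteoglycans 12 were tested, with 8 higher and 1 lower with heat in wild type and 1 higher and 2 lower in CHIP-KO. Those calls were 75% and 25%, beside the same 58.7% and 20% of all tested genes. Omd, another small leucine-rich proteoglycan gene, rose in wild type (1.46 to 4.31 FPKM) and fell in CHIP-KO (2.0 to 1.13 FPKM). Podn stood at 10.1 against 0.156 FPKM in unheated CHIP-KO and wild type. It averaged 0.553 FPKM in heated wild type, so its passing of the filter rested on CHIP-KO libraries. Of 16 further elastic fiber and crosslinking genes 13 were tested, with 9 higher and 2 lower with heat in wild type and 2 higher and 11 not called in CHIP-KO. Calls made up 84.6% and 15.4%, beside 58.7% and 20% of all tested genes. Bmp1, which encodes a protease that activates lysyl oxidase, rose in both (25.4 to 46.6 and 40.7 to 47.7 FPKM). Medians of the log2 change with heat in wild type were 0.625, 0.389 and 0.357 for the 3 lists, beside -0.0157 over all tested genes.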

How the data were processed

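RNA was captured by poly(A) for 12 libraries, per the labels' protocols, and a label gives 150 base reads. The authors deposited 1 table of FPKM values. The submitters' processing notes name HISAT2. No version, counting program, annotation, strand setting or scaling total was found in the sources used here. FPKM times gene length, divided by the smallest step found in its library, gave whole numbers of fragments for 100% of values above 0 (tolerance 0.01), from which depth was read. Positions of 47 of the 50 genes are identical in GENCODE M21 (GRCm38).

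Log2(FPKM + 1) of the 13023 genes kept entered a limma fit (version 3.58.1, R 4.3.3) with 1 mean per group, over all 12 libraries with a variance trend, two-sided. The fit was tested on simulated data for heat in wild type (12547 genes): 72% of genes changed 1.5-fold were recovered, 97.9% to 100% at 2-fold and 100% at 4-fold, and 7.11% of calls were false, above the 5% aimed at. The simulation gave all genes and libraries the same spread and changed only a small share of genes, all well counted. The real libraries differ in each of these, so the rates may not hold for them. The genes, their roles and the lists were chosen with earlier results of these data known. Any of the 50 genes could be named. Values per library were meant for up to 8 called genes with the largest change per comparison and the 2 most abundant of each role, some of which are given as mean ± SD, and up to 3 genes of each further list were named by largest called change. Figures used matplotlib 3.10.9.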

Additional observations from a re-analysis of the deposited data

Results flagged for a closer look

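The heat response differed between genotypes by the limma interaction test (CHIP-KO response minus wild-type response, log2, Benjamini-Hochberg adjusted over 13023 genes) for 30 of the 45 tested genes. Comp, Prelp, Aspn and Mfap2 are among the 30, and the passing of each through the filter rested on the genotype where it is high. Among matricellular and adhesive glycoproteins the difference was -4.61 for Postn, -2.78 for Nov, -1.79 for Tgfbi, -1.75 for Fn1, -1.53 for Spon2, -1.10 for Ecm1, -1.03 for Comp, -0.95 for Thbs2 and -0.86 for both Thbs3 and Tnc. Among small leucine-rich proteoglycans and relatives it was -2.82 for Fmod, -2.75 for Islr, -2.14 for Aspn, -1.17 for Ogn, -1.07 for Prelp and -0.92 for Bgn. It was -3.22 for Mgp and -2.98 for Serpinf1. In elastic fiber genes it was -1.82 for Mfap4, -1.74 for Fbln1, -0.98 for Ltbp2, -0.71 for Fbln5, -0.67 for Efemp2, -0.64 for Mfap2 and -0.50 for Ltbp3. Lysyl oxidases stood at -1.60 for Lox, -0.69 for Loxl3 and 0.47 for Loxl2, and nidogens at -0.96 for Nid2 and 0.52 for Nid1. Nid1 rose with heat in CHIP-KO and fell in wild type, and Islr and Prelp did the reverse.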

How the results depend on the processing

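The 148 member calls over the 5 comparisons were followed through each alternative: pseudocount, filter, scaling, groups, library weights, replicate block, voom on recovered fragments and each library left out. Of 3335 values, 3250 kept their direction and call, 82 kept the direction and lost the call, and 3 turned, all for heat in CHIP-KO with an equal sum per library (Bgn -0.118, Nid1 -0.109, Lamb1 -0.0802); that scaling moved the median of all genes there to -0.289.

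For heat in wild type, genes lower went from 5 to 8 under quantile normalization, an equal sum per library, library weights and voom, and to 3 with these groups alone. For heat in CHIP-KO, genes higher went from 6 to 3 under quantile normalization and voom, 1 with an equal sum, 16 with these groups alone, 18 with library weights and 14 without both wild-type replicates 1, and genes lower from 3 to 1 at a mean FPKM of at least 5, 6 under quantile normalization, 24 with an equal sum, 5 with these groups alone, 8 with library weights and 7 with voom. Positive interactions went from 2 to 4 under quantile normalization and without both wild-type replicates 1, and 8 with library weights. The cause was not tested. The library weights come from an estimate that stopped before it reached its tolerance. With 1 library left out, counts of genes higher and lower ranged over 31 to 32 and 5 to 6 for heat in wild type, 2 to 9 and 2 to 4 for heat in CHIP-KO, 31 to 35 and 3 to 4 for genotype without heat, 18 to 22 and 14 to 16 after heat, and 2 to 5 and 28 to 30 for the interaction. The low counts for heat in CHIP-KO came without any 1 unheated CHIP-KO library or without heated CHIP-KO replicates 2 or 3 (2 or 3 higher), and the high positive interactions without unheated wild-type replicate 3 (5) or heated replicate 2 (4).

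Over all tested genes, calls for heat in CHIP-KO went from 1126 higher and 1481 lower to 546 and 8207 with an equal sum, 973 and 1813 by quantiles, 906 and 3007 with voom, 1830 and 2213 with these groups alone, 2926 and 3275 with library weights and 1954 and 2413 without both wild-type replicates 1. Without unheated CHIP-KO replicate 1, 2 or 3 they were 724 and 959, 718 and 902, and 702 and 886 (13%, 12.5% and 12.2% called in place of 20%), and without heated CHIP-KO replicate 3, 792 and 973. Library weights gave 4614 and 3976 for genotype after heat and 3784 and 3619 for the interaction. At a mean FPKM of at least 5, where 7920 genes were tested, calls were 2011 and 3076 for heat in wild type, 615 and 963 in CHIP-KO, 2019 and 2402 for genotype without heat, 2313 and 1449 after heat and 2015 and 1403 for the interaction. For heat in wild type an equal sum gave 2341 and 6195 in place of 3664 and 3976; after heat the genotypes gave 2366 and 3031 with it and 2433 and 3166 with voom in place of 3033 and 2492; the interaction gave 1766 and 2866 with it in place of 2328 and 2253.

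Groups share replicate numbers, and the correlation of same-numbered deviations was -0.078, -0.12 and 0.00332 for heat in wild type, -0.0331, -0.00621 and -0.0764 in CHIP-KO, 0.0216, 0.0143 and -0.0578 between unheated genotypes and 0.335, 0.0207 and 0.231 between heated ones. Not every pair passed 0.1 in any comparison, so the numbers were not taken as pairs, and not every library correlated best with its own number. The replicate block left 31 higher and 5 lower for heat in wild type, 6 and 4 in CHIP-KO, 33 and 3 for genotype without heat, 22 and 16 after heat, and 2 and 29 for the interaction. Some values under 1 FPKM rest on few fragments, such as the 11 of Efemp1 in unheated wild type, where the longer Postn held 403.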

Other observations

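Genes that receive or regulate matrix signals, listed by function, were counted in the same fit. Of 16 genes for TGF-beta ligands, receptors and their regulators 15 were tested, and 7 rose and 2 fell with heat in wild type, 60% where 58.7% of all tested genes were called, while 3 rose and 4 fell in CHIP-KO, 46.7% beside 20%. Tgfb3, a TGF-beta ligand, stood at 12.2 FPKM in unheated and 57.6 FPKM in heated wild type and at 85.2 FPKM in unheated CHIP-KO, with an interaction of -2.27 (SE 0.157, limma adjusted p = 2.49e-06). Smad7, an inhibitor of the pathway, rose in both genotypes, from 5.94 to 36.8 FPKM in wild type and from 7.84 to 31.5 FPKM in CHIP-KO. Tgfb2 was at 11.2 FPKM in unheated CHIP-KO against 4.89 FPKM in wild type.

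Of the 17 tested matrix receptor genes (of 22 listed) 6 rose and 8 fell with heat in wild type, 82.4% beside 58.7% of all tested genes. In CHIP-KO 2 rose and 3 fell with heat, 29.4% beside 20%. Itga3, the laminin-binding integrin alpha 3, fell from 86.5 to 38.1 FPKM in heated wild type and stood at 33.9 FPKM in unheated CHIP-KO. Its interaction was 1.23 (SE 0.0849, limma adjusted p = 2.45e-06), opposite in sign to that of most matrix genes called. The medians of the log2 change with heat in wild type were 0.153 for the TGF-beta list and -0.0619 for the receptors, beside -0.0157 over all tested genes.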
